A study of Mus musculus with 14 samples.

Results

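Red blood cells of the early mouse embryo arise from mesoderm through blood progenitors that share a small set of regulators. TAL1 and LMO2 sit in one DNA-binding complex that starts the blood programme, and RUNX1 drives the emergence of blood cells from endothelium. KLF1, GFI1B and NFE2 act later, in red cell and megakaryocyte precursors, where they control globin, haem and cytoskeletal genes together with GATA factors. EPOR receives erythropoietin, the main survival and growth signal of red cell precursors. ALAS2 makes the first intermediate of haem in red cells, and ITGA2B (CD41) is a surface integrin of early blood progenitors and platelets.

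The 9 genes described here are Tal1, Lmo2, Runx1, Klf1, Gfi1b, Nfe2, Epor, Alas2 and Itga2b, named as a set and found by symbol among 36047 genes in each of the deposited count tables. Globin and GATA genes were left out of the set. All 9 passed the filter on low counts in both tables, so none is missing from the tests. Klf1, Gfi1b, Alas2 and Nfe2 had 0 to 10 counts per library at day 3 and passed through their day 5 levels. Klf1 passed through the day 5 control libraries, with 178 and 214 counts against 14 and 2 in KO. Counts of members that rose, or fell in KO at day 5, carry this limit. RNA was sequenced from mouse embryoid bodies, aggregates of differentiating embryonic stem cells, grown with shaking in a mesodermal medium with serum, transferrin and ascorbic acid. The control line is called iHA-Foxk1, written iHAFoxk1 with the letters ND at days 3 and 5 and Control at day 10. It was compared with a Foxk1 knockout line (Foxk1KO, here KO) at days 3, 5 and 10. A further KO group of day 10 carries the label IWR1, the name of a tankyrase inhibitor used to block canonical Wnt signalling. The labels state neither its dose nor its timing. The stem cells had been kept on mouse embryonic fibroblast feeders, which were removed by plating before differentiation. Each of the 7 groups has 2 libraries, and nothing in the labels says that they came from separate cultures, so p-values measure the spread between libraries, which may be technical. Nothing says that more than 1 line of each kind was used, so loss of Foxk1 and other differences between the lines cannot be told apart.

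Totals were 10574194 to 11621032 estimated counts per library at days 3 and 5 and 34466708 to 52747273 at day 10. Levels are in CPM, each library scaled to its TMM-adjusted total. Fold changes are on the log2 scale ± SE. The SE is the absolute log2 change divided by the square root of the F statistic of the test given next. It is not a fitted standard error and is less reliable for changes near 0. A gene is called when its adjusted p is below 0.05, from the quasi-likelihood F-test of edgeR and the Benjamini-Hochberg method applied to every gene tested in a table. The floor, taken as 3 counts in a library, was 0.0621 to 0.0827 CPM at day 10 and 0.254 to 0.298 CPM on the earlier days. Foxk1 read 86.3 and 76.4 CPM in control against 16.2 and 16.5 CPM in KO at day 3, and 134 and 133 CPM against 38.2 and 33.6 CPM at day 5. At day 10 it read 65 and 80.1 CPM in control, 71.3 and 41.8 CPM in the libraries labelled KO, and 26.4 and 52.9 CPM in those labelled KO with IWR1. It was not called lower on that day (adjusted p = 0.722 and 0.186 against control), so directions at day 10 rest on the labels alone. The KO libraries of day 5 stood apart from each other: 3.92% of 14430 genes differed by more than 2-fold between them (on CPM + 1), against 0.319% to 0.52% within the other groups of days 3 and 5. At day 10 the shares were 0.405% in control, 2.81% in KO and 3.68% in KO with IWR1.

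Upstream sequence is shown first, for the genes on which the day 5 result turns and for Tal1 and Runx1, which were not called in it. Promoter windows in RefSeq (GRCm38.p6) were found for 7 of the 9 genes, and not for Lmo2 and Nfe2. Motifs were searched in the 250 bases before the RefSeq start, and each line holds those that lie upstream of the GENCODE gene, 5′ to 3′ on the gene's strand. Capitals mark AGATAA or TGATAA on either strand, the letters that GATA factors recognise.

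Klf1: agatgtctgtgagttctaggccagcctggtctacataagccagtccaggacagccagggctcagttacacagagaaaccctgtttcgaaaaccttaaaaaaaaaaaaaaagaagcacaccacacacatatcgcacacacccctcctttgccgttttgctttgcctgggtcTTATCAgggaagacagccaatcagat

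Gfi1b: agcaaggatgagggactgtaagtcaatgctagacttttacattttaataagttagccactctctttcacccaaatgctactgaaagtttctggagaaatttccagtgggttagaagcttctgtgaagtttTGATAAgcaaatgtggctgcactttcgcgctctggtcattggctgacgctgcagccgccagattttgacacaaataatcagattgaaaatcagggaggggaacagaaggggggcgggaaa

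Epor: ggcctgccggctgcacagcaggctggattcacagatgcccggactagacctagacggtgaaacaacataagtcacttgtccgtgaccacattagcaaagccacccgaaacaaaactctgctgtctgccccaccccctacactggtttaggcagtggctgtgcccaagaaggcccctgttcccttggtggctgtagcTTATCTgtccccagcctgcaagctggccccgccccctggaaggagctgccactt

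Alas2: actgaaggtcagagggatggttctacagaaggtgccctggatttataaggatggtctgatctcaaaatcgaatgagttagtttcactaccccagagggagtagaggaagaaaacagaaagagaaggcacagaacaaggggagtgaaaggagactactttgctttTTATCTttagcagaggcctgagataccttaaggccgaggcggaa

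Tal1: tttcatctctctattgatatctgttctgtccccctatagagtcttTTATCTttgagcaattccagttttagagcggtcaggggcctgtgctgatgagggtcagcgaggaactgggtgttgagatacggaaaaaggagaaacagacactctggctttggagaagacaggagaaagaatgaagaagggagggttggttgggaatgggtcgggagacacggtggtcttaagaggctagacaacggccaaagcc

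Runx1: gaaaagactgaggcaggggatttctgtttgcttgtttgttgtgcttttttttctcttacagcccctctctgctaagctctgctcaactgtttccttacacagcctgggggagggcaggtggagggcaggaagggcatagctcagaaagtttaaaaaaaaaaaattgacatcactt

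These windows lie at chr8:84901732-84901927 (Klf1, plus strand), chr2:28621983-28622232 (Gfi1b, minus), chr9:21963577-21963826 (Epor, minus), chrX:150547167-150547374 (Alas2, plus), chr4:115056176-115056425 (Tal1, plus) and chr16:92826150-92826324 (Runx1, minus, the start furthest upstream). Klf1, Gfi1b, Epor and Alas2 hold 1 match each, at -80, -120, -54 and -86 from the start. Of the 2 Tal1 windows, the one shown holds 1 match, at -205, and the other, next to a start further downstream, holds 0. Itga2b and both Runx1 windows hold 0. Such a match is present in 16.6% of 32851 mouse promoter windows of this length, in 5 of the 9 windows of these genes and in 5 of the 7 genes. For each motif below, the number of the 9 windows with a match equals the number of genes given. Of the other motifs searched on both strands, CACCC-type boxes, which KLF factors bind (CCACACCC, CCGCACCC, CCACGCCC or CCGCGCCC), were in the windows of 1 of 7 genes, Runx1, and in 12.2% of all windows. E-boxes (CAGCTG, or else CAGATG) were in 3 of 7 genes and 25.5% of windows, and TGTGGT, the RUNX core, in 2 of 7 genes and 14% of windows. The spaced E-box and GATA pair that TAL1 complexes bind, a CTG and a GATAA separated by 8 bases, was in 1 of 7 genes, Klf1, where it overlaps the GATA match shown, and in 0.502% of windows. A match describes letters only. The counts are summed per gene, so the starts of Tal1 and of Runx1 cannot be told apart in the levels that follow.

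At day 3 the blood genes were low in both lines. Gfi1b, Klf1, Alas2 and Nfe2 were close to the detection floor: Gfi1b had 0 and 1 counts in control and 4 and 0 in KO, and Klf1 had 1 and 6 against 2 and 5. Alas2 had 7 and 1 counts in control and 3 and 1 in KO, and Nfe2 had 2 and 3 against 10 and 4. No direction is read from so few counts. The other members were higher. Tal1 read 4.4 and 3.26 CPM in control and 3.54 and 4.31 CPM in KO, and the groups overlapped. Epor read 4.4 and 4.58 CPM against 5.48 and 4.73 CPM, a difference of 0.18 ± 0.32 (adjusted p = 0.697). Itga2b read 1.94 and 1.32 CPM against 1.95 and 2.28 CPM (0.38 ± 1.24, adjusted p = 0.85).

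Lmo2 and Runx1 were the members whose KO libraries both lay under both control libraries at day 3, though Runx1 had only 4 counts in KO library 2. For Nfe2, near the floor, and for Epor and Itga2b both KO libraries lay above both controls. The share of all genes separated in either way was not computed. Lmo2, whose LIM protein bridges TAL1 to other factors, read 8.63 and 7.48 CPM in control and 3.71 and 4.23 CPM in KO (-1.02 ± 0.51, adjusted p = 0.177). Runx1 read 3.61 and 4.4 CPM in control and 1.5 and 0.338 CPM in KO (-2.13 ± 0.85, adjusted p = 0.115). Neither was called, and 0 of 9 members were, nor was any at an unadjusted p below 0.05, while 32.9% of all genes tested were called on that day. DESeq2 called 1 member, Runx1 (adjusted p = 0.0329). A fit of the 4 libraries of day 3 alone called Lmo2 (adjusted p = 7.62e-05) and Runx1 (adjusted p = 4.41e-05).

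**Figure D1:**
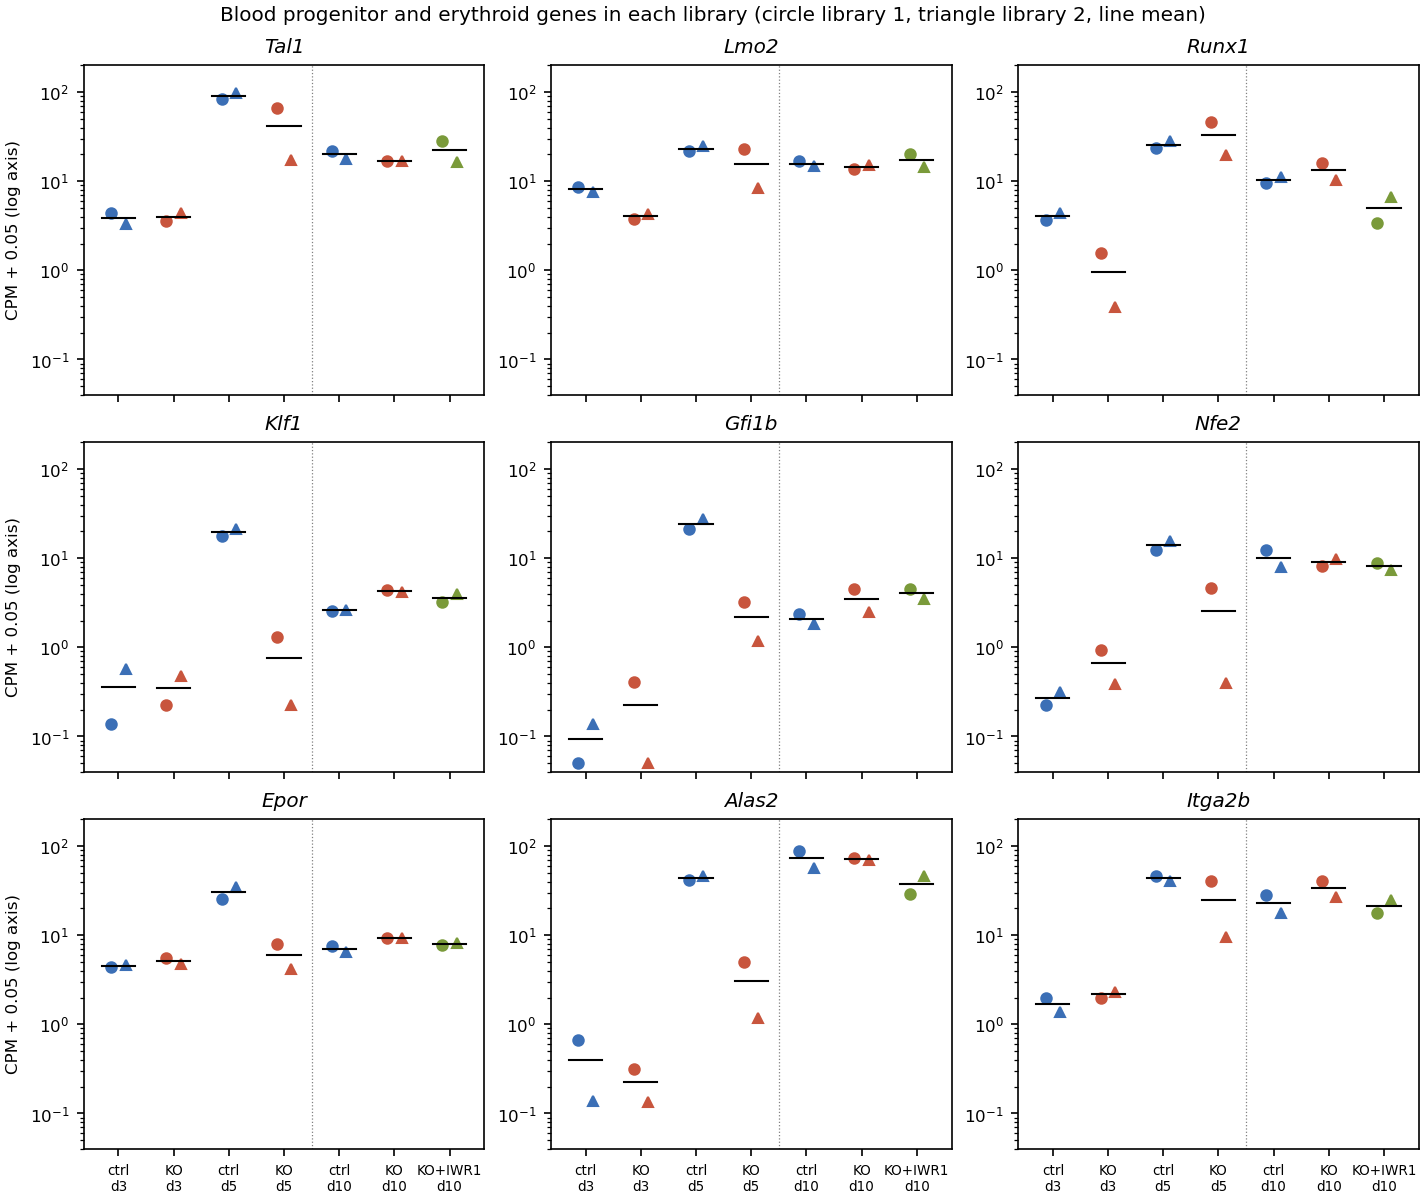
Levels of the 9 genes in all 14 libraries, as CPM + 0.05 on a log axis, with circles for library 1, triangles for library 2 and a line at the group mean; the dotted line separates the tables. At day 5 all 9 genes are lower in KO library 2 than in KO library 1. For 7 of them, all but Lmo2 and Runx1, both KO libraries lie under both control libraries. The share of all genes separated in this way was not computed.

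Between days 3 and 5 the whole set came on in the control line. All 9 members rose, where 30.6% of all genes tested were called higher, and their median log2 change was 4.72 beside -0.01 over all genes. Alas2 rose most among those with a fitted change, from 0.616 and 0.0881 to 41.3 and 46.1 CPM (6.91 ± 0.74, adjusted p = 3.58e-04). Klf1 rose from 0.088 and 0.528 to 17.6 and 21.3 CPM (5.93 ± 0.66, adjusted p = 1.22e-04), and Nfe2 from 0.176 and 0.264 to 12.4 and 15.5 CPM (5.91 ± 1.15, adjusted p = 0.00502). Gfi1b, a zinc finger repressor of red cell and megakaryocyte precursors, went from 1 count over both libraries to 492 (adjusted p = 6.70e-05). The ratio of these counts per effective library size was 554.5, with an exact binomial 95% interval of 99.1 to 21945 that covers counting error only. The members that were higher at day 3 rose as well. Tal1 rose to 84.5 and 98.1 CPM (4.57 ± 0.80, adjusted p = 0.00685), Itga2b to 45.7 and 40.9 CPM (4.72 ± 0.88, adjusted p = 0.00719), and Runx1 to 23.4 and 28 CPM (2.68 ± 0.55, adjusted p = 0.00742). Epor rose to 25.7 and 34.6 CPM (2.74 ± 0.29, adjusted p = 5.17e-05) and Lmo2 to 21.5 and 24.9 CPM (1.53 ± 0.44, adjusted p = 0.0226). The call on Lmo2 is the weakest of these: it was lost without any 1 of the 4 control libraries of days 3 and 5 (adjusted p = 0.0608 to 0.115) and without the filter on low counts (0.0792), and Runx1 lost its call without control library 1 of day 3 (adjusted p = 0.0524).

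In the KO line Runx1, Tal1, Itga2b, Lmo2, Alas2 and Gfi1b rose over the same days, while Klf1, Nfe2 and Epor were not called. Of the 9 members 6 rose, where 28.3% of all genes were called higher. Runx1 rose from 1.5 and 0.338 to 46.1 and 19.8 CPM (5.16 ± 0.68, adjusted p = 0.00159), Tal1 to 66.5 and 17.4 CPM (3.41 ± 0.81, adjusted p = 0.0221), Itga2b to 40.1 and 9.42 CPM (3.54 ± 0.86, adjusted p = 0.0211) and Lmo2 to 22.9 and 8.38 CPM (1.97 ± 0.48, adjusted p = 0.014). Alas2 and Gfi1b rose from a few counts to 4.97 and 1.13 CPM and to 3.16 and 1.13 CPM. Klf1 reached 1.26 CPM in KO library 1 and 0.175 CPM, which is 2 counts, in KO library 2 (1.21 ± 0.96, adjusted p = 0.322). Nfe2 read 4.61 and 0.349 CPM (2.00 ± 1.11, adjusted p = 0.177), and Epor 7.95 and 4.1 CPM (0.24 ± 0.31, adjusted p = 0.547), which overlaps its day 3 libraries. Without KO library 2 of day 5 all 9 members were called higher, and without KO library 1 of day 3 or KO library 2 of day 3 only 2 and 1 of them were. Without the filter on low counts 4 were called, as Lmo2 (adjusted p = 0.0583) and Alas2 (0.0842) lost their calls.

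At day 5, Klf1, Gfi1b, Nfe2, Epor and Alas2 fell in KO, 5 of 9 members, where 21.7% of all genes tested were called lower and 43.5% in either direction. The median log2 difference of the members was -2.32, beside 0.01 over all genes. Tal1, Lmo2, Runx1 and Itga2b were not called. In bulk RNA, fewer cells of a type and less RNA per cell cannot be told apart, and this holds for each difference given here.

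Klf1 (chromosome 8, 84901928 to 84905291, mm10), the activator of globin and red cell membrane genes, showed the widest gap. It read 17.6 and 21.3 CPM in control and 1.26 and 0.175 CPM in KO, a log2 difference of -4.75 ± 0.58 (adjusted p = 4.28e-04). KO library 1 thus held 6.5% of the control mean and KO library 2 0.897%. Alas2 (chromosome X, 150547375 to 150570638) read 41.3 and 46.1 CPM against 4.97 and 1.13 CPM (-3.85 ± 0.54, adjusted p = 0.0021). Gfi1b (chromosome 2, 28609450 to 28621982) read 21.3 and 27.5 CPM against 3.16 and 1.13 CPM (-3.51 ± 0.48, adjusted p = 9.02e-04). For these 3 genes both KO libraries were at 12.9% of the control mean or less. Epor (chromosome 9, 21958897 to 21963506) read 25.7 and 34.6 CPM against 7.95 and 4.1 CPM (-2.32 ± 0.28, adjusted p = 2.48e-04), and its KO libraries overlapped those of day 3. Nfe2 (chromosome 15, 103248212 to 103258403), the p45 subunit of a leucine zipper factor of red cells and platelets, read 12.4 and 15.5 CPM against 4.61 and 0.349 CPM (-2.50 ± 0.81, adjusted p = 0.049). The Nfe2 call was marginal: it was lost without control library 1 or 2 of day 5 (adjusted p = 0.125 and 0.162), without the filter on low counts (0.138) and in a fit of the 4 day 5 libraries alone (0.143).

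**Figure D2:**
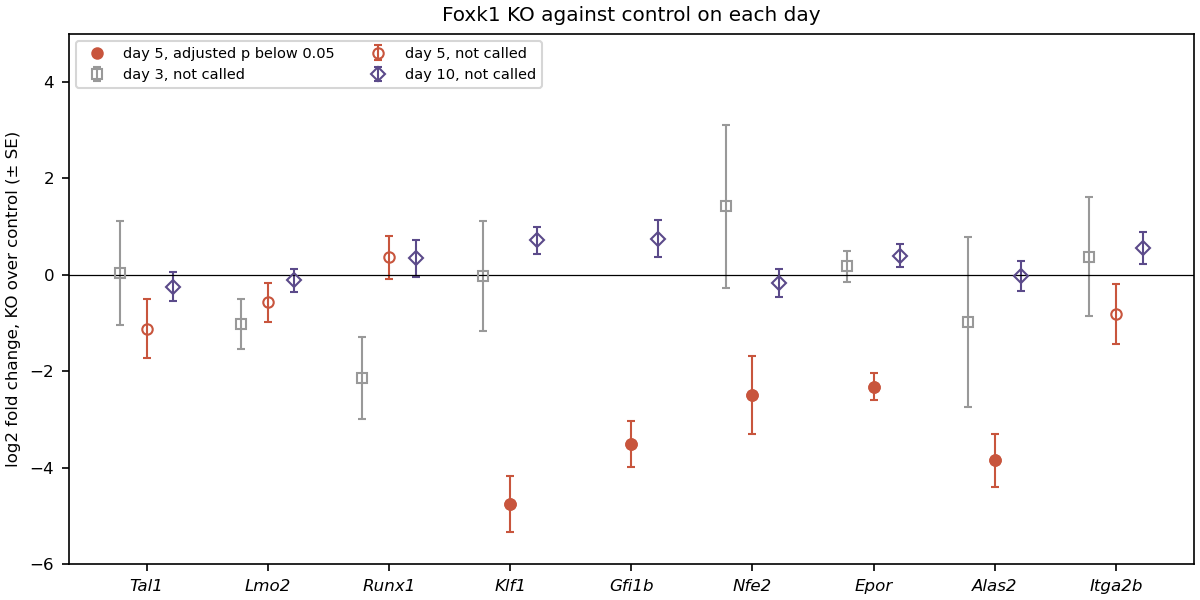
Log2 fold change of KO over control (± SE, derived from the F statistic of edgeR) for each gene on each day. Filled symbols mark adjusted p below 0.05 and open symbols the rest. Gfi1b has no value at day 3 because control held 1 count. The filled symbols are Klf1, Gfi1b, Nfe2, Epor and Alas2 at day 5, between -2.32 and -4.75, and the day 10 values lie between -0.25 and 0.75.

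For the members not called, the values depended on which KO library was read. Tal1 (chromosome 4, 115056426 to 115071755) read 84.5 and 98.1 CPM in control but 66.5 CPM in KO library 1 and 17.4 CPM in KO library 2 (-1.12 ± 0.61, adjusted p = 0.206). Itga2b (chromosome 11, 102453297 to 102470122) read 45.7 and 40.9 CPM in control and 40.1 and 9.42 CPM in KO (-0.81 ± 0.63, adjusted p = 0.353). Lmo2 (chromosome 2, 103957986 to 103981878) read 21.5 and 24.9 CPM against 22.9 and 8.38 CPM (-0.57 ± 0.41, adjusted p = 0.31). Runx1 (chromosome 16, 92601466 to 92826149) read 23.4 and 28 CPM against 46.1 and 19.8 CPM (0.36 ± 0.45, adjusted p = 0.557). For Lmo2 and Runx1 the groups overlapped. In KO library 1 these 4 genes stood at 72.9% to 179.5% of the control mean, with Runx1 the highest, and in KO library 2 at 19% to 77.1%.

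All 9 members were higher in KO library 1 than in KO library 2 at day 5, by 1.94-fold for Epor to 13.2-fold for Nfe2. Over all genes tested, 51.3% were higher in library 1. On CPM + 1, 6 members were more than 2-fold higher in library 1, where 2.05% of genes tested were. Between the control libraries of that day no member differed by as much as 2-fold. Left out in turn, the KO libraries moved the calls. Without KO library 1, 8 members were called lower, with Tal1 at -2.40 (adjusted p = 1.23e-15), Itga2b at -2.20 (adjusted p = 2.46e-12) and Lmo2 at -1.47 (adjusted p = 1.12e-07), and Runx1 turned to -0.38 (adjusted p = 0.123). Without KO library 2, 6 members were called lower, Tal1 among them at -0.47 (adjusted p = 3.29e-04), and Runx1 was called higher at 0.83 (adjusted p = 5.61e-04). In these fits 1 KO library remains and is assumed to vary like the other groups. Klf1, Gfi1b, Epor and Alas2 were called lower under every alternative run, each left-out library included, and Nfe2 with either KO library left out.

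**Figure D3:**
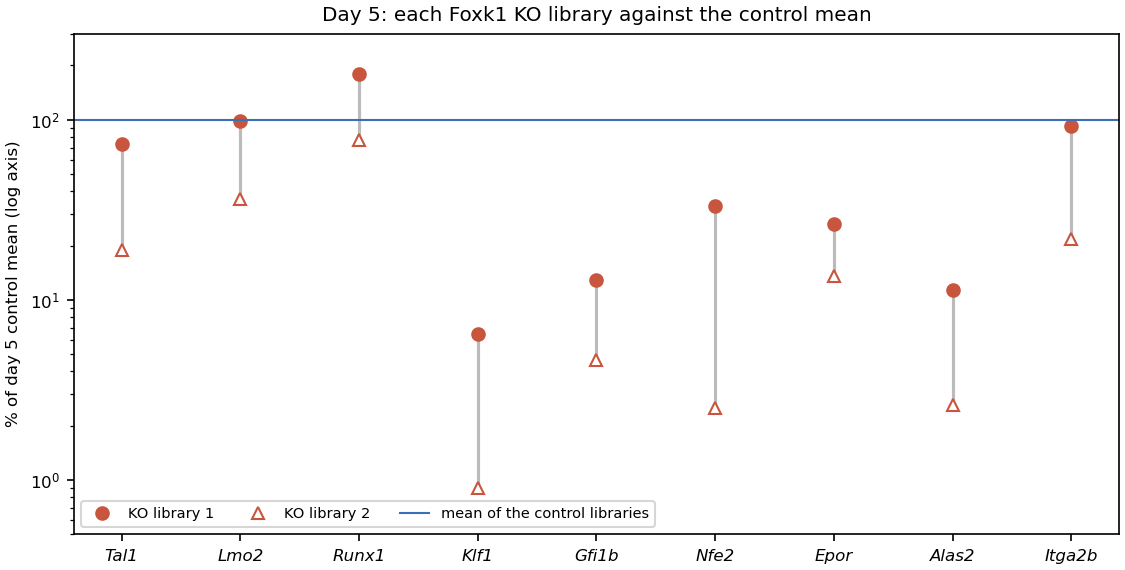
Each KO library of day 5 as a percentage of the mean of the control libraries, on a log axis; the blue line is the control mean. Klf1, Gfi1b, Epor and Alas2 are at 26.4% or less in both libraries, while Tal1, Lmo2, Runx1 and Itga2b reach 72.9% to 179.5% in library 1.

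Markers of other cell types differed between the same libraries. Over a list of 12 genes of undifferentiated stem cells, the summed level was 85.1 and 94.9 CPM in control but 356.4 CPM in KO library 1 and 665.7 CPM in KO library 2, and 11 of 12 rose in KO. Over 13 endothelial genes it was 476.1 and 405.7 CPM in control and 860.2 and 473 CPM in KO, with 2 of 12 tested genes higher and 0 lower. Over 12 fibroblast and feeder genes it was 4943.7 and 4622.2 CPM in control and 4034.2 and 2445 CPM in KO, with 5 of 11 tested lower. Over 12 cardiomyocyte genes it was 202.5 and 196.8 CPM in control and 74.7 and 57.2 CPM in KO, with 5 of 11 tested lower and 1 higher. The 9 globin and GATA genes summed to 1324.9 and 1377.5 CPM in control and to 152.4 and 39.9 CPM in KO, with 6 of 8 tested lower. Macrophage genes were near the floor at 7.95 to 16.3 CPM summed over 13 genes, with C1qa, C1qb and C1qc at 0 in every day 5 library. The part of these cell types in the differences of the blood genes was not tested. At day 3 the stem cell genes summed to 1998.6 to 2423.2 CPM in the 4 libraries, and the globin and GATA genes to 3.27 to 6.96 CPM. On that day 16.9% of all genes tested were called lower and 16% higher. Fibroblast and feeder genes then summed to 2469.1 and 2456.9 CPM in control against 472 and 465.9 CPM in KO. Of 11 tested, 2 were lower and 1 higher, with a median log2 difference of 0.0. Endothelial genes summed to 215.1 and 208.4 CPM against 99 and 92.5 CPM, with 4 of 12 tested lower and a median of 0.35. The drop in each sum thus came from part of its list. The part of these cell types in the day 3 levels of Lmo2 and Runx1 was not tested.

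Whether the lines differed by more at day 5 than at day 3 was tested as an interaction. Epor passed, with a change in the KO effect of -2.51 ± 0.42 (adjusted p = 0.00315), and Klf1 at -4.72 ± 1.43 (adjusted p = 0.0468). That is 2 of 9 members lower, where 10.8% of all genes were called in that direction. The Klf1 result rests on 7 counts per group at day 3, and it was lost without any 1 of 6 libraries, which were the 4 of day 3 and the 2 controls of day 5 (adjusted p = 0.0524 to 0.331). For Runx1 the change was 2.48 ± 0.97, towards KO (adjusted p = 0.126), and for Nfe2 -3.91 ± 1.86 (adjusted p = 0.188). DESeq2 called 4 members in this test, all lower. Without KO library 1 of day 5, 8 members were called, 7 of them lower, and without KO library 2 of that day 6 were, 4 of them lower.

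At day 10 no member was called between KO and control, against 5.27% of all genes, and at an unadjusted p below 0.05 there was 1, Klf1. DESeq2 called 0 of them too. Alas2 was level, at 89.1 and 56.7 CPM in control and 73.9 and 69.3 CPM in the libraries labelled KO (-0.03 ± 0.31, adjusted p = 0.981). Klf1 read 2.54 and 2.6 CPM against 4.39 and 4.1 CPM (0.72 ± 0.28, adjusted p = 0.205), Gfi1b 2.31 and 1.77 CPM against 4.44 and 2.43 CPM (0.75 ± 0.39, adjusted p = 0.361) and Epor 7.6 and 6.41 CPM against 9.29 and 9.24 CPM (0.40 ± 0.23, adjusted p = 0.414). For these 3 genes both KO libraries read above both controls, and the share of all genes separated in this way was not computed. Nfe2 read 12.2 and 8.02 CPM against 8.17 and 9.81 CPM (-0.17 ± 0.29, adjusted p = 0.838). Tal1, whose KO libraries both read below the controls, was at 22 and 17.9 CPM against 16.8 and 16.7 CPM (-0.25 ± 0.30, adjusted p = 0.742), Lmo2 16.6 and 14.6 CPM against 13.6 and 15.2 CPM (-0.11 ± 0.24, adjusted p = 0.875), and Itga2b 27.9 and 17.5 CPM against 40.1 and 26.9 CPM (0.56 ± 0.33, adjusted p = 0.428). Runx1 read 9.56 and 11.2 CPM against 16 and 10.4 CPM (0.34 ± 0.38, adjusted p = 0.726). Misses of the threshold do not show equal levels, since the spread between day 10 libraries was wide: the common biological coefficient of variation was 0.248, against 0.0915 at days 3 and 5. Days 5 and 10 were scaled separately and were not tested against each other. Side by side, the control libraries held 17.6 to 21.3 CPM of Klf1 at day 5 and 2.54 to 2.6 CPM at day 10, and 41.3 to 46.1 CPM of Alas2 at day 5 and 56.7 to 89.1 CPM at day 10.

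Under IWR1, Runx1 and Alas2 were the members whose libraries both read below all 4 untreated ones of day 10. The means of Itga2b and Nfe2 were also lowest under IWR1, but their libraries overlapped those of control. The share of all genes below all untreated libraries was not computed. Runx1 was at 3.31 and 6.56 CPM in the treated libraries, below all 4 untreated ones, with -1.42 ± 0.39 against KO (adjusted p = 0.0588) and -1.08 ± 0.39 against control (adjusted p = 0.124). Alas2 was at 29.1 and 45.6 CPM, again below all 4 untreated libraries, with -0.94 ± 0.31 against KO (adjusted p = 0.0868) and -0.96 ± 0.31 against control (adjusted p = 0.0971). The comparisons share the treated libraries. edgeR called 0 of 9 members in either, against 13.9% and 9.12% of all genes, with 2 and 3 members at an unadjusted p below 0.05. DESeq2, and edgeR without the filter on low counts, called Runx1 and Alas2 lower in both (adjusted p = 0.00516 to 0.045 for DESeq2 and 0.00611 to 0.0426 without the filter). Without treated library 2, Runx1 was called in edgeR too (adjusted p = 0.0282 against KO and 0.0479 against control). Macrophage genes summed to 330.6 and 648.7 CPM in treated libraries, 845.2 and 1322 CPM in KO and 1071.1 and 991.5 CPM in control, with 2 of 13 called lower against KO, and their part in the Runx1 level was not tested. Fibroblast and feeder genes summed to 1677.2 and 4175.2 CPM under IWR1 against 31479.1 and 23597 CPM in KO, likewise not tested. Gfi1b was the third member at an unadjusted p below 0.05 against control, at 4.49 and 3.47 CPM in treated libraries and 2.31 and 1.77 CPM in control (0.96 ± 0.39, adjusted p = 0.147), and it was the one that read higher. Itga2b read 17.9 and 24.7 CPM (-0.66 ± 0.33 against KO, adjusted p = 0.209), Tal1 28.4 and 16.4 CPM (0.42 ± 0.30, adjusted p = 0.356) and Lmo2 20.2 and 14.4 CPM (0.27 ± 0.24, adjusted p = 0.471). Klf1 read 3.15 and 3.94 CPM, Epor 7.74 and 8.21 CPM and Nfe2 8.82 and 7.25 CPM, and for these and Gfi1b adjusted p was 0.525 to 0.72 against KO.

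To compare genes with one another, CPM were divided by the length of the merged exons. At day 5 in control, Tal1 stood highest at 20.8 ± 2.18 CPM per kb (SD, n = 2), followed by Alas2 at 18.2 ± 1.41, Epor at 15.1 ± 3.17, Gfi1b at 13.3 ± 2.4, Klf1 at 12.7 ± 1.67 and Lmo2 at 10.7 ± 1.12 CPM per kb. Neighbours in that order lay within their spread. Itga2b at 7.94 ± 0.616, Nfe2 at 4.67 ± 0.736 and Runx1 at 2.14 ± 0.272 CPM per kb followed, each below the one before by more than the spread. The merged exons of Runx1 span 12025 bases, the longest of the set, which lowers its value on this scale. At day 5 in KO the first places were held by Tal1 at 9.58 ± 7.94, Lmo2 at 7.23 ± 4.75 and Itga2b at 4.54 ± 3.98 CPM per kb, and Klf1 came last at 0.47 ± 0.504. At day 10 Alas2 led in every group, at 30.3 ± 9.55 CPM per kb in control, 29.8 ± 1.35 in KO and 15.6 ± 4.87 under IWR1, and Runx1 was lowest in every group.

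**Figure D4:**
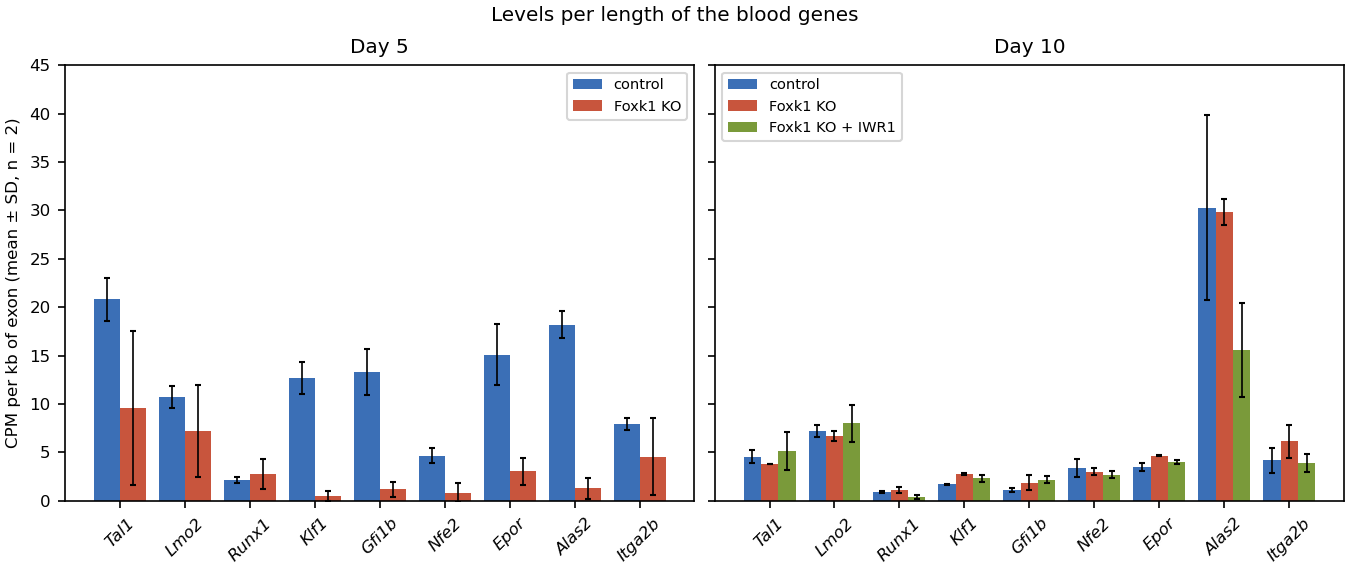
Mean level per kb of merged exon (bars, CPM per kb; error bars SD, n = 2) at day 5 and day 10. At day 5 the control bars of Klf1, Gfi1b and Alas2 are far taller than the KO bars, and at day 10 Alas2 is the tallest bar in all 3 groups.

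Genes that work with the members were then counted on day 5, from lists drawn up with earlier results of these data known. On that day 21.7% of all genes tested were called lower and 21.9% higher. Of 20 red cell membrane and maturation genes, 18 were tested and 13 fell in KO, with 0 higher and a median log2 difference of -2.50. Slc4a1, the anion exchanger of the red cell, fell from 12 and 8.74 to 0.361 and 0.436 CPM (-4.66 ± 0.38, adjusted p = 1.93e-05), and Sptb, the spectrin beta chain of the red cell skeleton, from 89.3 and 106 to 19.3 and 16.3 CPM (-2.46 ± 0.12, adjusted p = 9.34e-07). Tspan33, a tetraspanin needed for normal red cell formation in mice, fell from 22.1 and 25 to 3.97 and 4.8 CPM (-2.42 ± 0.18, adjusted p = 1.15e-05). These 3 genes were as low in KO library 1 as in KO library 2, with library 1 to library 2 ratios of 0.828 to 1.18. At day 3 Tspan33 had been called higher in KO, at 11.3 and 10.1 CPM against 3.96 and 4.75 CPM in control (1.29 ± 0.19, adjusted p = 8.55e-04). Slc4a1 and Sptb were not called on that day (adjusted p = 0.559 and 0.855).

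Haem synthesis and iron import followed. Of 15 such genes, all tested, 11 fell and 0 rose, with a median of -0.66. Slc25a37 (mitoferrin), which carries iron into mitochondria, fell from 147 and 163 to 43.4 and 47.5 CPM (-1.77 ± 0.08, adjusted p = 5.00e-07). Fam210b, a mitochondrial protein of red cell precursors, fell from 64.5 and 69 to 32.1 and 21.2 CPM (-1.32 ± 0.16, adjusted p = 2.94e-04). Alad, the enzyme after ALAS2 in the pathway, fell from 60.6 and 62.3 to 39.4 and 36.6 CPM (-0.69 ± 0.09, adjusted p = 2.80e-04). Fam210b (-0.95 ± 0.21, adjusted p = 0.00912) and Alad (-0.42 ± 0.09, adjusted p = 0.00689) were already called lower in KO at day 3. A change of their KO effect by day 5 was not called (adjusted p = 0.35 and 0.153). Slc25a37 had been called higher in KO at day 3 (0.31 ± 0.09, adjusted p = 0.0214).

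Partners of TAL1, LMO2 and RUNX1 and other early blood factors numbered 20, of which 19 were tested, 6 fell and 3 rose, with a median of -0.06. These counts are near the shares over all genes. Zfpm1 (FOG1), the cofactor of GATA1, fell from 154 and 165 to 69.3 and 52.9 CPM (-1.39 ± 0.12, adjusted p = 5.19e-05). It was already lower in KO at day 3, at 5.22 and 6.51 CPM against 30.5 and 32.6 CPM (-2.42 ± 0.17, adjusted p = 1.88e-05), and the KO effect was smaller at day 5 (1.03 ± 0.21, adjusted p = 0.00908). Meis1, a homeobox factor of blood progenitors and other mesoderm, fell from 16.3 and 15.2 to 6.32 and 5.58 CPM (-1.40 ± 0.21, adjusted p = 6.87e-04). Tcf3, which encodes an E protein partner of TAL1, fell by a small amount, from 293 and 279 to 224 and 238 CPM (-0.30 ± 0.05, adjusted p = 0.00175). Of 12 genes of erythropoietin receptor signalling, 5 rose and 1 fell, with a median of 0.17. Cish, a feedback inhibitor of STAT5, rose from 7.73 and 8.45 to 14.7 and 18.3 CPM (1.03 ± 0.21, adjusted p = 0.0033), the phosphatase gene Ptpn6 from 11.4 and 11.8 to 17.7 and 28 CPM (0.98 ± 0.20, adjusted p = 0.00413) and the survival gene Bcl2l1 from 65.4 and 65.1 to 87.5 and 97 CPM (0.50 ± 0.08, adjusted p = 8.83e-04). At day 3, 5 of these 12 genes were called lower in KO and 1 higher, with a median of -0.34, where 16.9% and 16% of all genes were. Ptpn6 (-0.63 ± 0.19, adjusted p = 0.0349) and Bcl2l1 (-0.4 ± 0.08, adjusted p = 0.00526) were among the lower ones, and Cish was not called (0.6 ± 0.24, adjusted p = 0.0807). Most of the signalling list is expressed in many cell types.

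Megakaryocyte and platelet genes were mostly too low to test at day 5, with 7 of 17 tested, 2 higher and 0 lower. Those called were the small Maf gene Mafg, whose product pairs with NFE2, which rose from 108 and 103 to 164 and 159.6 CPM (0.61 ± 0.05, adjusted p = 2.93e-05), and Nfe2l2, a widely expressed relative of Nfe2, which rose from 63.4 and 69.6 to 96.3 and 79.6 CPM (0.40 ± 0.09, adjusted p = 0.00763). Vwf, a gene of endothelium and platelets, read 5.95 and 4.77 against 9.12 and 8.11 CPM (0.68 ± 0.28, adjusted p = 0.0706). At day 3 Mafg (0.24 ± 0.05, adjusted p = 0.00723) and Nfe2l2 (0.3 ± 0.1, adjusted p = 0.0375) were already called higher in KO, and Vwf lower (-1.38 ± 0.47, adjusted p = 0.0492). The KO effect on Nfe2l2 was not called as changed by day 5 (adjusted p = 0.632), while that on Mafg was (0.37 ± 0.08, adjusted p = 0.00674).

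At day 10, KO against control, 1 of 20 early factors, 1 of 12 signalling genes and 1 of 15 haem and iron genes were called, where 5.27% of all genes were. Among red cell maturation genes, Tmod1, a tropomodulin of red cells and heart muscle, fell from 82.3 and 64.5 to 27.8 and 28.8 CPM (-1.37 ± 0.20, adjusted p = 0.0181). Cardiomyocyte genes moved with Tmod1, with 10 of 12 lower in KO and sums of 5116.1 and 4382.2 CPM in control against 162.7 and 369.4 CPM. Their part in it was not tested. In haem and iron genes Steap3, a ferric reductase, rose from 6.16 and 7.41 to 21.4 and 21.8 CPM (1.67 ± 0.34, adjusted p = 0.0447) and Fam210b read 65.1 and 59.4 against 40.3 and 29.7 CPM (-0.83 ± 0.22, adjusted p = 0.0906). Among early factors Mllt3, which supports blood stem cells in human, fell from 72.4 and 61.9 to 32.7 and 34.3 CPM (-1.0 ± 0.19, adjusted p = 0.034), and Gfi1, the paralogue of Gfi1b, read 1.68 and 1.67 against 0.461 and 0.629 CPM (-1.62 ± 0.41, adjusted p = 0.0757). In receptor signalling Socs3, a cytokine feedback inhibitor, rose from 14.2 and 15.3 to 29.7 and 29.3 CPM (1.00 ± 0.20, adjusted p = 0.0399) and Socs2 read 24.9 and 27.8 against 18.7 and 14.7 CPM (-0.66 ± 0.21, adjusted p = 0.132). Of 16 megakaryocyte genes tested none was called by edgeR (6 at an unadjusted p below 0.05, and 2 called by DESeq2). The nearest were the collagen receptor gene Gp6, at 0.793 and 0.768 against 2.84 and 1.91 CPM (1.60 ± 0.46, adjusted p = 0.112), and the platelet chemokine gene Ppbp, at 0.746 and 1.06 against 2.64 and 1.8 CPM (1.30 ± 0.39, adjusted p = 0.122).

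Finally, the genes with the most similar course were found by the root mean square difference of log2(CPM + 0.1), centred within each table, over the 14 libraries and 12699 protein-coding candidates. The points share libraries and depth, and the values carry no p. Itga2b was nearest to Lyl1, a close relative of Tal1, at 0.24, and to Tgfbi at 0.32. Klf1 was nearest to Trim10, a RING finger gene of mouse red cell differentiation, at 0.49, and to Tmem252 at 0.6. Nfe2 was nearest to Epb42, a red cell membrane protein gene, at 0.53, and to Pgm5 at 0.55. Alas2 was nearest to Art4 at 0.61 and Dlk1 at 0.62, and Gfi1b to Hoxb4 at 0.65 and Art4 at 0.73. Epor was nearest to Pfkfb4 at 0.22 and Bche at 0.32, Tal1 to Zfp711 at 0.32 and Zfp9 at 0.38, Lmo2 to Zfp28 at 0.26 and Nt5m at 0.29, and Runx1 to Kif26b at 0.51 and Tmem176a at 0.55. Among the members themselves the closest pair was Tal1 and Itga2b, at 0.42. The mean course of the members was nearest to Jdp2 at 0.39, Mest at 0.4, Emilin1 at 0.42, Cdkn1c at 0.43 and Zfp9 at 0.43.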

How the data were processed

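RNA of 14 embryoid body libraries was measured by paired-end bulk RNA-seq. The authors deposited estimated counts per gene, as whole numbers, in one table for days 3 and 5 and another for day 10; they came from kallisto 0.46.2 and mm10, per the submitters' processing notes. The labels name neither the transcript annotation nor a strand setting, and their protocols give a TruSeq RNA or a stranded mRNA kit.

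GENCODE vM21 named 35968 of 36047 identifiers. Each table was fitted separately in edgeR 4.0.16 (R 4.3.3; filterByExpr, TMM, robust quasi-likelihood, one mean per group), with 14430 and 17022 genes tested, and levels were not tested between tables. Beside the members and Foxk1, the text names the 3 genes of each pathway list with the smallest unadjusted p at day 5, the 2 with the smallest at day 10 (KO against control), and the nearest courses (2 per member and 5 for their mean, among protein-coding genes with a mean of at least 1 CPM). A gene that this rule selects at day 10 is not reported here. Members and lists were chosen with earlier results of these data known. Replicate numbers share only a number, so no block was used. Alternatives were no filter, median-of-ratios scaling, DESeq2 1.42.0, a replicate block, fits of the compared groups alone and each library left out. In counts simulated from these libraries, the share of false calls exceeded the nominal level in each comparison, which is a caution for calls near the threshold. There each gene had the same mean in all groups apart from a planted set, smaller than the number of genes called in any comparison here. The share depends on how many genes truly change, so its size cannot be carried over to these data. Intervals and floors cover counting error only.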

Additional observations from a re-analysis of the deposited data

Results flagged for a closer look

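The difference between KO and control changed between days 3 and 5 for Epor and Klf1, by the interaction term of edgeR. For Epor the change was -2.51 ± 0.42 on the log2 scale (adjusted p = 0.00315), and it was called under every alternative run. For Klf1 it was -4.72 ± 1.43 (adjusted p = 0.0468). The Klf1 call was lost without the filter on low counts (adjusted p = 0.0553), with a replicate block (0.0727) and without any 1 of the 4 day 3 libraries or the 2 day 5 controls. Each day 3 group held 7 counts of it, and the part of that in the lost calls was not tested.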

How the results depend on the processing

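Among single members compared under the alternatives, 559 values kept their direction and side of the threshold, 31 gained a call, 29 lost one and 22 turned direction. Median-of-ratios scaling moved no count of calls by over 1.5 times.

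Of the 9 members, DESeq2 called 1 at day 3, 4 for the change of the KO effect and 2 in each IWR1 comparison; without the filter on low counts the numbers were 1 for that change and 2 in each IWR1 comparison, and fits of the compared groups alone called 2 at day 3. Over all genes, DESeq2 called 2991 at day 3 (4741 by edgeR), 2317 for the change of the KO effect (3496), 2027 for KO against control at day 10 (897), 4308 for IWR1 against KO (2358) and 3456 for IWR1 against control (1553). Without the filter these day 10 counts were 1737, 3697 and 3093. Fits of the compared groups alone gave 7334 at day 3 and 1001 for IWR1 against KO. The causes were not tested.

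The replicate numbers are not stated to pair samples, and each group has only 2. The correlation of deviations between same-numbered libraries was -0.00795 to 0.0837 at days 3 and 5, and -0.569, 0.452 and -0.548 at day 10. With a replicate block, 1 member was called for the change of the KO effect (Klf1 lost its call, adjusted p = 0.0727), and 1233 and 948 genes were called for IWR1 against KO and against control; no other member's call changed.

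With 1 library left out, a lone library is assumed to vary like the other groups. Members called ranged from 4 to 8 at day 5, 1 to 9 for the KO course, 7 to 8 for the control course, 1 to 8 for the change of the KO effect and 0 to 1 in each IWR1 comparison, and were 0 in each fit at day 3 and for KO against control at day 10. All genes called ranged from 2520 to 2572 at day 3, 4030 to 7565 at day 5, 7005 to 7439 for the control course, 5619 to 8759 for the KO course, 2049 to 5621 for the change of the KO effect, 63 to 838 for KO against control at day 10, 548 to 3056 for IWR1 against KO and 280 to 2145 for IWR1 against control.

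The turned log2 values all came from leaving out 1 library, and the ranges over left-out libraries were these. At day 3, Alas2 ran from -1.92 to 0.89, Tal1 from -0.17 to 0.27 and Klf1 from -0.79 to 1.65, and Klf1 also turned to 0.44 without KO library 1, Tal1 to -0.12 without KO library 2. At day 5 Runx1 ran from -0.38 to 0.83, and over the change of the KO effect Lmo2 ran from -0.45 to 0.97. For the KO course, Klf1 ran from -0.76 to 2.00, Nfe2 from -0.78 to 2.88 and Epor from -0.31 to 0.61. These lowest values at day 5 and for the KO course came without KO library 1 of day 5. For KO against control at day 10, Nfe2 ran from -0.43 to 0.17, Alas2 from -0.31 to 0.34 (0.02 without KO library 2) and Runx1 from -0.045 to 0.63. For IWR1 against control, Nfe2 ran from -0.60 to 0.0037, Itga2b from -0.39 to 0.28 (0.12 without IWR1 library 1), Tal1 from -0.28 to 0.51 and Lmo2 from -0.11 to 0.38. For IWR1 against KO, Gfi1b ran from -0.16 to 0.74, Tal1 from -0.031 to 0.76 and Lmo2 from -0.00025 to 0.49.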
